A study of Mus musculus with 4 samples.

Results

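Slc16a3, Ldha, Pfkl and Pfkm, genes that act at the committed step and at the lactate end of glycolysis, were examined in mouse embryonic fibroblasts with and without siRNA against eIF1A. They are 4 of the 4878 genes in the deposited table. The 4 genes were chosen by name from the measured difference between the knockdown and control libraries, so that difference is described here without a test. The cells were fibroblasts at passages 5 to 8, grown in plates and transfected with Lipofectamine RNAimax. The control group (2 libraries) received the siRNA labelled Si-Negative control, and the knockdown group (2 libraries) received the siRNA labelled Si-eIF1A (X+18). Polyadenylated RNA was read by bulk MARS-seq, which counts the 3′ ends of transcripts. Whether libraries of the same group are separate cultures is not stated, and any p-value then measures a spread that may be technical. In bulk RNA, fewer cells of a type and less RNA per cell cannot be told apart.

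Glycolysis splits glucose into pyruvate in the cytosol, and cells that run it fast reduce pyruvate to lactate and export it. Phosphofructokinase makes the first committed step and is a tetramer of liver (Pfkl), muscle (Pfkm) and platelet (Pfkp) type subunits. Ldha encodes the subunit of lactate dehydrogenase that favours lactate formation and recycles NADH. Slc16a3 encodes MCT4, a proton-coupled transporter that carries lactate out of glycolytic cells. Many genes of this route are known targets of the hypoxia-inducible factor HIF-1, which binds an RCGTG core in DNA. Factor eIF1A, the target of the siRNA, helps the small ribosomal subunit find the start codon.

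The DNA just before the annotated start of each gene is shown because many genes of this route are HIF-1 targets and the 4 were low in the same libraries. Each window holds the 250 bases before a RefSeq start (GRCm38.p6, the same build as mm10) that lies within 50 bases of a principal start in GENCODE M21, written 5′ to 3′ along the gene. Capitals mark ACGTG and GCGTG, searched on both strands. The E-box CACGTG reads ACGTG on both strands and overlaps itself, so it counts as 1 place.
Slc16a3 (chr11:120948817-120949066, plus strand): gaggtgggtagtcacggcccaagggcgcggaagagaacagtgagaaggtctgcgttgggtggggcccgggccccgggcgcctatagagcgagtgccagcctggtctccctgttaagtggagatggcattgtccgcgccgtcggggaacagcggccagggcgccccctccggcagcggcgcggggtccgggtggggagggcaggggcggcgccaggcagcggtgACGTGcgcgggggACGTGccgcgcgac
Ldha (chr7:46845554-46845803, plus strand): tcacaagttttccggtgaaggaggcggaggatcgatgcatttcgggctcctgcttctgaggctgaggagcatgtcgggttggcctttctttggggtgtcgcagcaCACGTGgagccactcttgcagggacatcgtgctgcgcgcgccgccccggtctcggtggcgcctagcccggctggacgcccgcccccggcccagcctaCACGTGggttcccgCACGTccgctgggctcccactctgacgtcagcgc
Ldha (chr7:46846832-46847081, plus strand): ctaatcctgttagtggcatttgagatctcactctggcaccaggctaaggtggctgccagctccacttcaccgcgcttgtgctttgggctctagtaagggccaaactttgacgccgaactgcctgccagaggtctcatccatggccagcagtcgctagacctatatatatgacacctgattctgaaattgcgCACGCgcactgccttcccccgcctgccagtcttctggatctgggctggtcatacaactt
Pfkl (chr10:78009808-78010057, minus strand): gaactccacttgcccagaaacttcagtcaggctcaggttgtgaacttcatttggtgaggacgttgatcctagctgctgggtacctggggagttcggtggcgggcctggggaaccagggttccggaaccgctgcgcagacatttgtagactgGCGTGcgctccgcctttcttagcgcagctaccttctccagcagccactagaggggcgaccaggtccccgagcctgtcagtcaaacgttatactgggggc
Pfkm (chr15:98092339-98092588, plus strand): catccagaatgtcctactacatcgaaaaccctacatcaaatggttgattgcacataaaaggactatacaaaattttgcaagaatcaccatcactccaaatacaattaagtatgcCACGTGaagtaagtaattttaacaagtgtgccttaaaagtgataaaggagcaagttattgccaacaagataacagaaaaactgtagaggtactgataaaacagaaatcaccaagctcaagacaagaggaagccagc
Pfkm (chr15:98108221-98108470, plus strand): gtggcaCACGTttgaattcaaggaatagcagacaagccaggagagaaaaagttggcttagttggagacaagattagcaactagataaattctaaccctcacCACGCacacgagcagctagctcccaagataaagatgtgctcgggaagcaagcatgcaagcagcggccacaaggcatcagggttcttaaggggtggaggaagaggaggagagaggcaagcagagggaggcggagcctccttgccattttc

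In the Slc16a3 window the matches began 27 and 14 bases before the start. The upstream Ldha window held matches in 3 places, among them a pair of E-boxes, and the downstream Ldha window held 1. Pfkl held a match at 1 place, 99 bases before its start. The far upstream Pfkm window held an E-box, and the inner one held matches in 2 places. Each of the 4 genes had at least 1 window with a match. Of all 8 RefSeq windows of the 4 genes, 6 are shown and 7 held a match. The unshown Pfkm window with a match overlaps the inner Pfkm window, and its match is a site already marked there. Over all 32851 mouse windows of this length 38.6% held ACGTG or GCGTG, 16.6% held ACGTG and 6.02% held an E-box. At least 1 window with either core was found in 41.5% of 27025 genes. Among genes with a window, that held for 15 of 24 other glycolytic enzymes and 11 of 21 other sugar and monocarboxylate transport genes. It held for 33 of 37 HIF-1 targets outside glycolysis. It also held for 14 of 18 flux regulator and pyruvate dehydrogenase genes and 12 of 14 serine branch and NADH shuttle genes. Reads of 3′ ends do not show which start was used, and a match is a run of letters and not a measured binding site.

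Slc16a3 had the lowest log2 fold change of the 4605 genes tested. The gene lies on mm10 chromosome 11, 120948480 to 120960868, on the plus strand. Its normalised counts were 4666 and 4863 in controls 1 and 2, and 169 and 123 in knockdowns 1 and 2. These rest on 4741 and 5992 reads in the controls and on 209 and 181 in the knockdowns. The controls lay within 1.04-fold of each other and the knockdowns within 1.37-fold, and the lower control was 27.7-fold above the higher knockdown. The mean went from 4765 ± 139 to 146 ± 32.4 normalised counts (SD, n = 2 each) (log2 fold change −5.04, standard error 0.22). The ratio of summed reads, scaled to the libraries, was 33.2 (exact 95% counting interval 30.0 to 36.8, which covers counting error only). In controls Slc16a3 ranked 49 of 4878 genes by normalised count.

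Ldha had the most reads of the 4. It lies on chromosome 7, 46841475 to 46855627, plus strand. Controls 1 and 2 held 13991 and 19028 normalised counts, and knockdowns 1 and 2 held 2937 and 2284. The controls differed by 1.36-fold, yet the lower of them stood 4.76-fold above the higher knockdown. The mean went from 16509 ± 3561 to 2610 ± 462 (SD, n = 2 each), a log2 fold change of −2.65 (standard error 0.25). By scaled reads the ratio was 6.49 (95% counting interval 6.32 to 6.66, which leaves out the spread between libraries). Ldha ranked 6 by control level, and it took 0.651% and 0.903% of the reads in controls against 0.169% and 0.143% in knockdowns. GENCODE names 2 pseudogenes of it, Ldha-ps and Ldha-ps2, which could share its reads, so its count is uncertain to at least that extent. Copies that do not carry the gene's symbol were not sought.

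Both phosphofructokinase genes were low in the same knockdown libraries. Pfkl lies on chromosome 10, 77986947 to 78010083, minus strand. It had 2956 and 3187 normalised counts in controls 1 and 2 and 544 and 465 in knockdowns 1 and 2. Neither group spread by more than 1.17-fold, while 5.43-fold separated the nearest libraries of the groups. The log2 fold change of Pfkl was −2.61 (standard error 0.21), from 3072 ± 163 to 504 ± 56.2 (SD, n = 2 each). Pfkm lies on chromosome 15, 98092589 to 98132451, plus strand, and gave 661 and 519 normalised counts in controls 1 and 2. It gave 71.8 and 108 in knockdowns 1 and 2, from 89 and 159 reads. Pfkm had the fewest reads of the 4, its knockdown libraries differed by 1.50-fold, and the groups were 4.80-fold apart at their nearest. Its log2 fold change was −2.72 (standard error 0.25), from 590 ± 101 to 89.9 ± 25.6 (SD, n = 2 each). The scaled read ratios were 6.15 (95% counting interval 5.81 to 6.53) for Pfkl and 6.37 (5.56 to 7.33) for Pfkm. The intervals overlap. No exon of another gene was annotated in the last 1000 bases of any of the 4 genes.

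**Figure D1:**
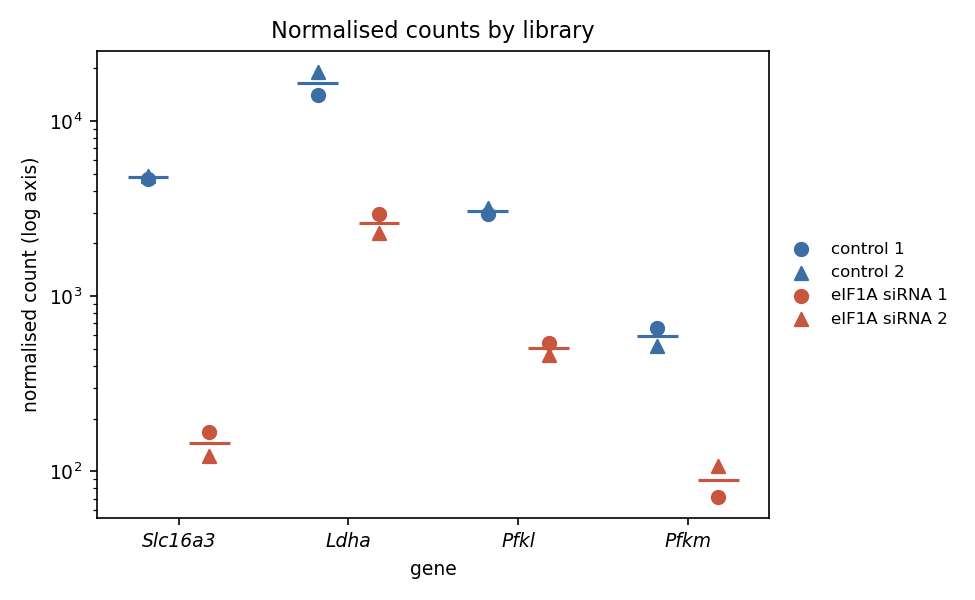
Normalised counts on a log axis for Slc16a3, Ldha, Pfkl and Pfkm. Points are libraries (2 control in blue, 2 eIF1A knockdown in red) and short lines are group means. In every gene both knockdown points lie below both control points, from 169 and 123 against 4666 and 4863 in Slc16a3 to 71.8 and 108 against 661 and 519 in Pfkm.

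Of each control library's reads, the 4 genes together took 1.04% (control 1) and 1.31% (control 2). In knockdown libraries they took 0.214% and 0.186%. Over all genes tested, limma called 21.6% lower and 15.9% higher (Benjamini-Hochberg adjusted p under 0.05), and the median log2 fold change was −0.01. The contrast that chose the 4 genes is this one, so nothing is read from their place against that share. By log2 fold change from the lowest, Slc16a3 ranked 1, Pfkm 48, Ldha 53 and Pfkl 57 of 4605. Genes at least 4-fold lower numbered 124, or 2.69% of those tested.

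**Figure D2:**
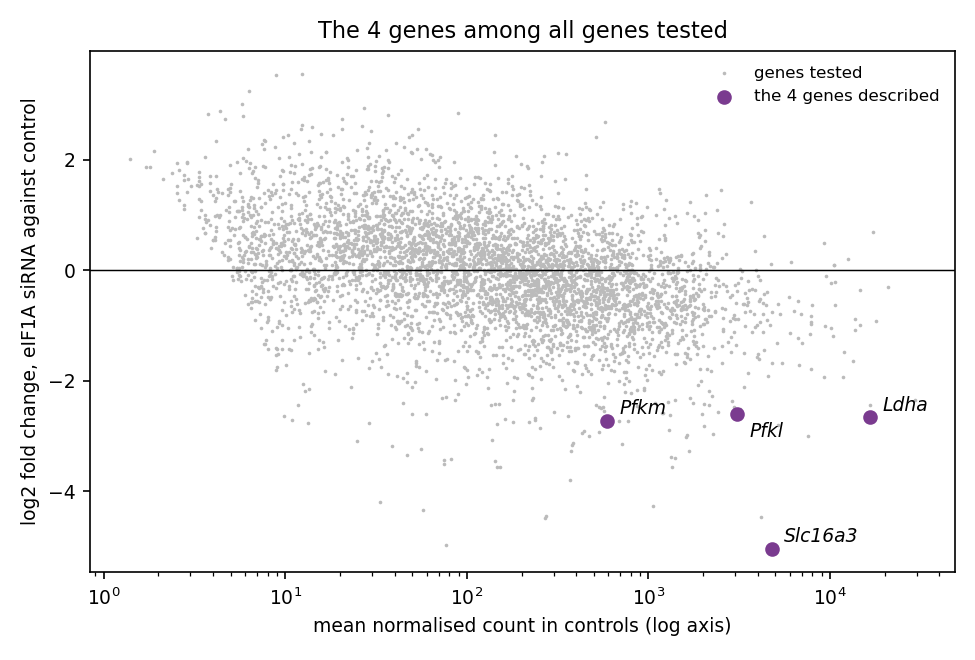
Log2 fold change of knockdown against control libraries, plotted against the mean normalised count in controls (log axis) for the 4605 genes tested (grey) with the 4 genes in purple. Slc16a3 lies at the bottom at −5.04, and Ldha, Pfkl and Pfkm lie between −2.61 and −2.72.

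Abundant transcripts and transcripts rich in G and C were lower in knockdown libraries in general, and the part of this in the 4 genes was not tested. Genes were split into 10 equal classes by mean over all 4 libraries, and Slc16a3, Ldha and Pfkl fall in the highest class. The other 457 genes of that class had a median log2 fold change of −0.47, and 45.3% were called lower. None of them was as low as Slc16a3, and 7 were as low as Ldha or lower. In Pfkm's class of 459 other genes the median was −0.25, and 3 were as low. Transcript GC content was 56.6% for Slc16a3, 57.1% for Pfkl, 54.7% for Pfkm and 51.5% for Ldha. Genes within 2 percentage points of Pfkl had a median of −0.44, and those as near to Ldha had −0.04. With the trend on GC content removed, the log2 fold changes were −4.64 for Slc16a3, −2.65 for Ldha, −2.17 for Pfkl and −2.46 for Pfkm. After scaling all libraries to equal totals they were −4.69, −2.30, −2.26 and −2.37, while the median of all genes moved to 0.34.

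The nearest analysed genes on the same chromosomes showed no called difference, though most were far away. The closest on each side was taken, 8 in all, from 881 to 368616 bases off, and both of those flanking Pfkl lay 160826 bases or more away. None passed the test in either direction (log2 fold changes −0.82 to 0.64, smallest adjusted p = 0.0571 in limma). Over all genes 21.6% were called lower and 15.9% higher. Fasn (19 to 40 reads per library) and Hps5 (35 to 56) had few reads, so that they did not pass says little. Csnk1d, a casein kinase gene that ends 881 bases beyond Slc16a3 on the opposite strand, had 386 and 407 normalised counts in controls 1 and 2. It had 383 and 389 in knockdowns 1 and 2, which is a difference of −0.04 on the log2 scale. Asb8, 2186 bases beyond Pfkm, had 137 and 114 in controls against 119 and 120 in knockdowns (−0.07).

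Ldha and Pfkl had nearly the same pattern over the 4 libraries, and Slc16a3 stood apart by the size of its difference. Likeness was the Euclidean distance over the 4 libraries between log2 profiles, each with its own mean subtracted. Ldha and Pfkl were 0.26 apart, with only Mgp, a matrix mineralisation inhibitor, nearer to Ldha. Pfkl and Pfkm were 0.67 apart, and Slc16a3 was 2.40 to 2.45 from the other members, with 46 genes nearer to it than Ldha. Nearest to Slc16a3 were Cbr2, a carbonyl reductase, at 0.59, then Lrrc17 at 0.65 and Ndrg2 at 0.68. Cbr2 held 3799 and 4519 normalised counts in controls and 211 and 165 in knockdowns. Nearest to Ldha were Mgp at 0.26, Pfkl, and Pik3ip1, an inhibitor of PI3-kinase, at 0.27. Pfkl lay nearest to Kif3c at 0.124, to Anxa6, an annexin, at 0.126, and then to S100a4 at 0.186. Kif3c rests on a single read in each knockdown library. Pfkm lay nearest to Ecm1, a secreted matrix protein, at 0.16, and to Dhcr7, a cholesterol synthesis enzyme, at 0.21. With 4 libraries a short distance says little beyond a like fold and a like order within groups.

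Other enzymes of glycolysis were lower too. Of 29 symbols on the enzyme list 12 were in the table, and 7 besides the members passed the filter on low values. Of these 7, limma called 5 lower and none higher, against 21.6% and 15.9% of all genes, and their median log2 fold change was −1.81 against −0.01. The calls of the 5 held with each library left out. Pkm, pyruvate kinase, had 30951 and 28136 normalised counts in controls and 5417 and 6251 in knockdowns, a log2 fold change of −2.34 (standard error 0.25, limma adjusted p = 1.05e-06). Its spread within groups was small beside the gap between them. Gapdh fell from 21572 and 11500 to 3291 and 2587 (−2.43), with controls that differed more from each other than those of the 4 genes did. Hk1, the hexokinase that traps glucose, fell by 1.68 on the log2 scale, from 1873 and 1304 to 533 and 447. Eno3, the muscle-type enolase, fell by 1.81, and Pgam1, a phosphoglycerate mutase, fell by 2.01 from 60.0 and 43.0 normalised counts to 13.7 and 10.2.

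Not every enzyme of the route was low. Hk2, the inducible hexokinase, was scarce in all libraries, with 7.87 and 3.25 normalised counts in controls against 10.5 and 13.6 after knockdown. It did not pass (log2 fold change 1.08, limma adjusted p = 0.217). Adpgk, an ADP-dependent glucokinase, stood at 217 and 222 against 293 and 312 and did not pass either (0.46, adjusted p = 0.114). Pfkp and Pgk1 lay under the filter. Pfkp, the platelet-type phosphofructokinase, had 6 and 5 reads in controls and 1 in each knockdown. Its scaled read ratio was 6.63, with a wide 95% counting interval of 1.45 to 61.6. Pgk1, phosphoglycerate kinase, had 1 and 7 reads in controls and 1 in each knockdown, and GENCODE names 3 copies of it. Gapdh and Pgam1 each have 2 copies named after them, so the counts of all 3 genes are uncertain where copies share reads. Copies under other names were not sought for any gene and may be more numerous.

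At the gates of the pathway the few genes measured were lower at glucose entry and lactate exit. Of 30 transporter symbols 4 were in the table, and of the 3 besides Slc16a3 limma called 2 lower and none higher, beside 21.6% and 15.9% of all genes. Slc2a1, the glucose transporter GLUT1, fell from 739 and 709 normalised counts to 245 and 281 (log2 fold change −1.46, standard error 0.21, adjusted p = 3.25e-05). Bsg encodes basigin, the chaperone that MCT1 and MCT4 need to reach the cell surface. It fell from 11572 and 12253 to 4303 and 4213 (−1.48, adjusted p = 7.42e-05), a smaller difference than that of Slc16a3, which was not tested against it. Mpc2, a subunit of the mitochondrial pyruvate carrier, stood at 261 and 328 in controls against 422 and 366 after knockdown without passing (0.43, adjusted p = 0.148). Slc16a1 and Ldhb, the paralogues most often set beside Slc16a3 and Ldha, were not analysed here.

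**Figure D3:**
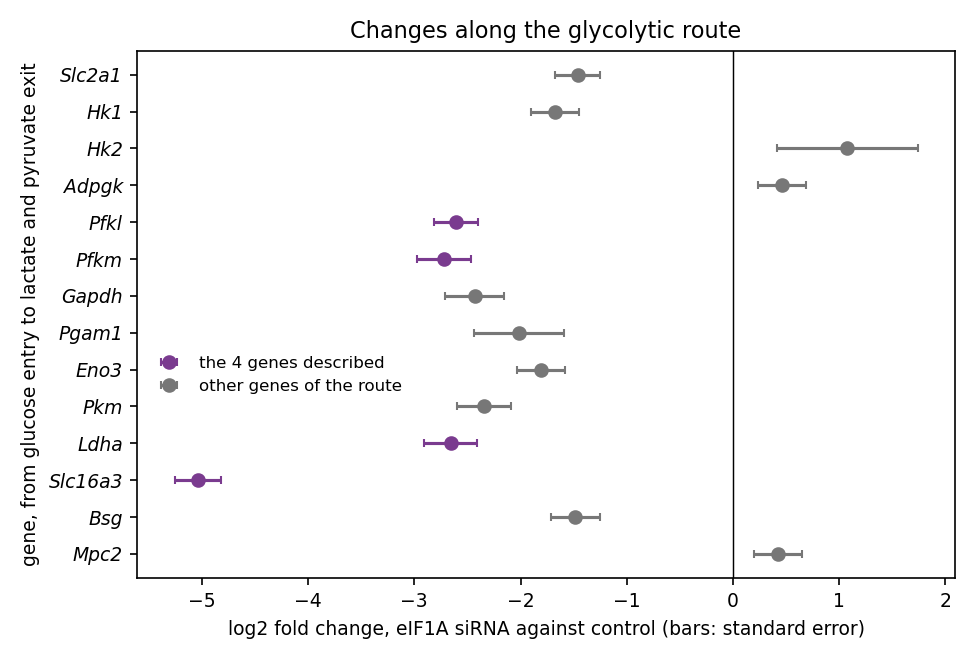
Log2 fold change of knockdown against control for the 14 tested genes of the route, ordered from glucose entry to lactate and pyruvate exit, with bars for the standard error. The 4 genes described (purple) run from −2.61 to −5.04, the other called genes (grey) from −1.46 to −2.43, and Hk2, Adpgk and Mpc2 lie above 0 without passing the test.

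Genes that govern pyruvate oxidation in mitochondria gave few calls. Of 6 tested flux regulators and pyruvate dehydrogenase genes limma called 1 higher and none lower, beside 15.9% and 21.6% of all genes. Their median log2 fold change was 0.79, and it was 0.46 without knockdown replicate 2 and 0.27 with the GC trend removed. Pdha1, the catalytic subunit of pyruvate dehydrogenase, rose from 56.1 and 73.0 normalised counts to 103 and 150 (0.94, adjusted p = 0.0167). That call was lost with the GC trend removed (limma adjusted p = 0.288) and in limma without the trend (0.0629). Its log2 fold change was 0.76 without control replicate 1 and 0.67 without knockdown replicate 2. Pdhx, Dld and Pdhb, other parts of that complex, had log2 fold changes of 0.79, 0.80 and −0.46 and did not pass. Leaving out control replicate 1 made Pdhb a lower call (−0.89, adjusted p = 0.0105), as did removal of the GC trend (−0.87, adjusted p = 0.0250). In the citrate cycle and its inflows 4 of 19 fell and 2 rose, with a median of −0.14 that turned to 0.14 without control replicate 2 and to 0.21 with equal totals. That is 21.1% lower and 10.5% higher, beside 21.6% and 15.9% of all genes. Idh2, the mitochondrial NADP-dependent isocitrate dehydrogenase, fell from 2192 and 2308 to 464 and 462 (−2.28, adjusted p = 9.65e-08). Idh1 fell by 2.02 and Acly, which makes cytosolic acetyl-CoA, by 0.88 (adjusted p = 0.0533 after quantile normalisation), whereas Idh3a rose by 1.38. The other calls, named after their values were seen, were Pcx (−0.81) and Me2 (0.89). Equal totals (adjusted p = 0.140) and limma without the trend (0.0591) ended the call of Pcx. Removal of the GC trend ended the calls of Pcx (0.336) and Me2 (0.176). With a library left out Pcx ran from −0.98 to −0.65 and Me2 from 0.78 to 0.99.

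Branches that leave glycolysis went in different directions. Of 11 tested genes of glycogen, hexosamine, galactose and polyol metabolism 6 fell and 1 rose. That is 54.5% lower and 9.09% higher, beside 21.6% and 15.9% of all genes, with a median of −0.68 (−0.33 with equal totals). The rise was Pgm1, which lost its call with any library left out. Galk1, galactokinase, fell from 3814 and 2944 normalised counts to 765 and 779 (−2.12, adjusted p = 4.97e-07). Pgm2, a phosphoglucomutase, fell by 1.89, Gys1, glycogen synthase, fell by 1.62 and Pygb, a glycogen phosphorylase, fell by 1.51. The other lower calls, named after their values were seen, were Akr1b8 (−0.68) and Sord (−0.85). Both were lost with equal totals (adjusted p = 0.328 and 0.109) and in limma without the trend (0.102 and 0.0607). That of Akr1b8 was also lost with edgeR (0.0610) and DESeq2 (0.110). In the serine branch and the NADH shuttles 4 of 10 rose and 3 fell, beside 15.9% and 21.6% of all genes. Their median was 0.47 (0.82 with equal totals and 0.28 with the GC trend removed). Psph, which completes serine synthesis, rose from 261 and 378 to 1543 and 1227 (2.13, adjusted p = 9.7e-07), Psat1 rose by 1.48 and Shmt2 by 1.04. Slc25a11, the malate carrier of the NADH shuttle, fell from 1209 and 1492 to 676 and 545. Named after their values were seen, Shmt1 rose by 0.91, and Mdh1 and Slc25a12 changed by −0.74 each. Shmt1 lost its call without knockdown replicate 2 (adjusted p = 0.168), Mdh1 without control replicate 2 (0.168) or knockdown replicate 2 (0.265), and Slc25a12 without control replicate 1 (0.283), knockdown replicate 1 (0.0668) or 2 (0.145). Of 3 tested pentose phosphate genes, G6pdx, which opens that pathway, fell by 0.87 (adjusted p = 0.0621 after quantile normalisation), Rpe rose by 1.76 and Prps1 did not pass (0.30). That is 33.3% in each direction, beside 21.6% lower and 15.9% higher over all genes. Rpe had a control library with 4 reads, and removing the GC trend ended its call (limma adjusted p = 0.162). With a library left out Rpe ran from 1.39 to 2.14.

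Lactate leaves through MCT4 together with a proton, and genes of acid handling were mixed. Of 6 tested, 2 fell and 1 rose, beside 21.6% and 15.9% of all genes. The median was 0.18, but it ran from −0.30 (without control replicate 2) to 0.30 with a library left out and was −0.61 at a mean of at least 20. Slc4a2, an anion exchanger, fell by 1.06 on the log2 scale, from 778 and 519 to 251 and 370 normalised counts (adjusted p = 0.00249). Removing the GC trend ended that call (0.121), as did limma without the trend (0.0598). Car5b, a mitochondrial carbonic anhydrase, fell by 1.31, a call lost with equal totals (limma adjusted p = 0.0757). With a library left out Car5b ran from −1.40 to −1.22. Slc9a8, a sodium/proton exchanger, rose by 1.41. Car13 did not pass (0.69).

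HIF-1 targets that are not glycolytic were lower more often than higher. Of 25 tested 13 fell, 2 rose and 10 did not pass, with a median of −0.77. That is 52.0% lower and 8% higher, beside 21.6% and 15.9% of all genes. P4ha2, a collagen prolyl hydroxylase, fell from 1022 and 907 normalised counts to 295 and 265 (−1.78, adjusted p = 3.3e-06). Bnip3, a mitophagy receptor, fell by 2.03, Kdm4b, a histone demethylase, by 1.61 and Anxa2 by 1.49. The rises, named after their values were seen, were Ets1 (1.33) and Pgm1 (0.81). Lists were matched by symbol, and whether the HIF-1 target is the gene called Pgm1 or Pgm2 here was not checked. Pgm2, which is not on this list, fell by 1.89. The call of Ets1 was lost with quantile normalisation (adjusted p = 0.0829), DESeq2 (0.0673) and the GC trend removed (0.172). That of Pgm1 was lost in the same settings (0.107, 0.0714 and 0.131) and with the replicate block (0.0766). With a library left out Ets1 ran from 0.92 to 1.73 and Pgm1 from 0.75 to 0.87. The list was drawn up with earlier results of these libraries known, so it is not independent evidence of its direction. Of 7 tested HIF factors and oxygen sensors 1 was lower and 1 higher, with a median of 0.04. The median was −0.17 to 0.22 with a library left out and 0.38 with equal totals. That is 14.3% in each direction, beside 21.6% lower and 15.9% higher over all genes. Egln2, an oxygen-sensing prolyl hydroxylase, fell by 0.78 (adjusted p = 0.00619) and Cited2, which competes with HIF for its coactivator, rose by 0.77 (0.0138). Egln2 lost its call with equal totals (0.104), quantile normalisation (0.0947) and the GC trend removed (0.984). In limma without the trend the calls of Egln2 (0.0556) and Cited2 (0.0856) were lost. With a library left out Egln2 ran from −0.88 to −0.69 and Cited2 from 0.58 to 0.96. Egln1 and Vhl did not pass (−0.64 and −0.55).

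**Figure D4:**
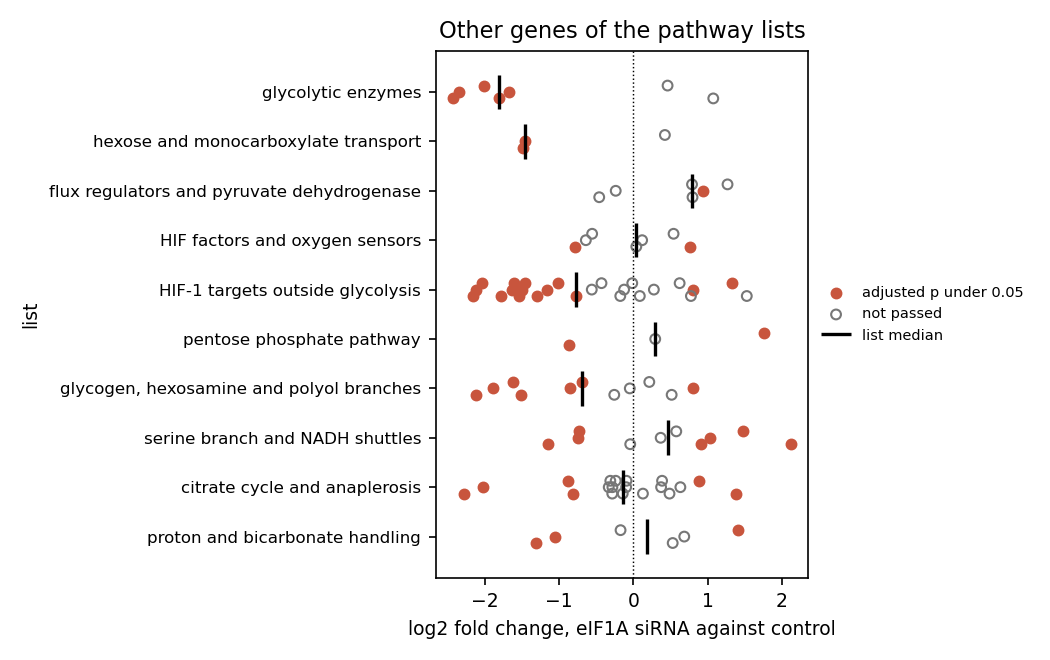
Log2 fold change of each tested gene of the 10 pathway lists, the 4 described genes left out, with filled points for an adjusted p under 0.05, open points for genes that did not pass and a black line at the list median. Glycolytic enzymes have a median of −1.81 and HIF-1 targets −0.77, while HIF factors lie about 0.04 and the serine branch and NADH shuttles at 0.47.

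Markers of the cells themselves moved with the groups. Of 24 fibroblast markers 10 were in the table, among them Vim, Sparc and Fn1, and 8 of the 10 fell and none rose. That is 80.0% called lower and 0% higher, beside 21.6% and 15.9% of all genes, with a median log2 fold change of −1.45. The marker list too was drawn up with earlier results of these libraries known, so it is not independent evidence of its direction. The summed level of the 10 was 29621 to 33749 normalised counts in controls and 15279 to 16910 in knockdowns. The lowest were Cd248, a stromal cell surface glycoprotein (−4.26), Col6a1, a collagen chain (−2.99), and S100a4 (−2.73). Cd248 and Col6a1 had lower values than Ldha, Pfkl and Pfkm, and S100a4 lay about level with Pfkm (−2.72). Vim, the fibroblast intermediate filament, fell by 0.91, and Fn1 and Prrx1 did not pass (−0.08 and −0.10). Of 25 skeletal muscle markers, looked at because Pfkm is the muscle-type subunit, only Pax3 was in the table. It stood at 18.7 and 12.2 normalised counts in controls against 20.99 and 25.8 after knockdown, without passing (0.59, adjusted p = 0.347). None of 14 epithelial and 18 endothelial or blood markers were among the genes analysed, and Map2 and Nes were, of 16 adipocyte, cartilage and neural markers. Nes was called lower (−0.75, adjusted p = 0.0188 in limma), and Map2 did not pass (−1.05, adjusted p = 0.153). The part of the fibroblast markers' difference in that of the 4 genes was not tested. Reads recovered per library were 2152331 to 2595625 over the genes of the table. The mRNA targeted by the siRNA was not analysed here.

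The direction, for which the genes were chosen, held in each setting tried. Over 17 other settings Slc16a3 was 24.9-fold to 38.4-fold lower, Ldha 4.55-fold to 7.34-fold, Pfkl 4.51-fold to 6.59-fold and Pfkm 5.16-fold to 8.05-fold. A minimum mean of 20 or none, the replicate block (also with crossed numbers) and limma without the trend cannot change these fold changes. They returned the reported values exactly, so they do not test the direction, and the ranges rest on the remaining settings.

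**Figure D5:**
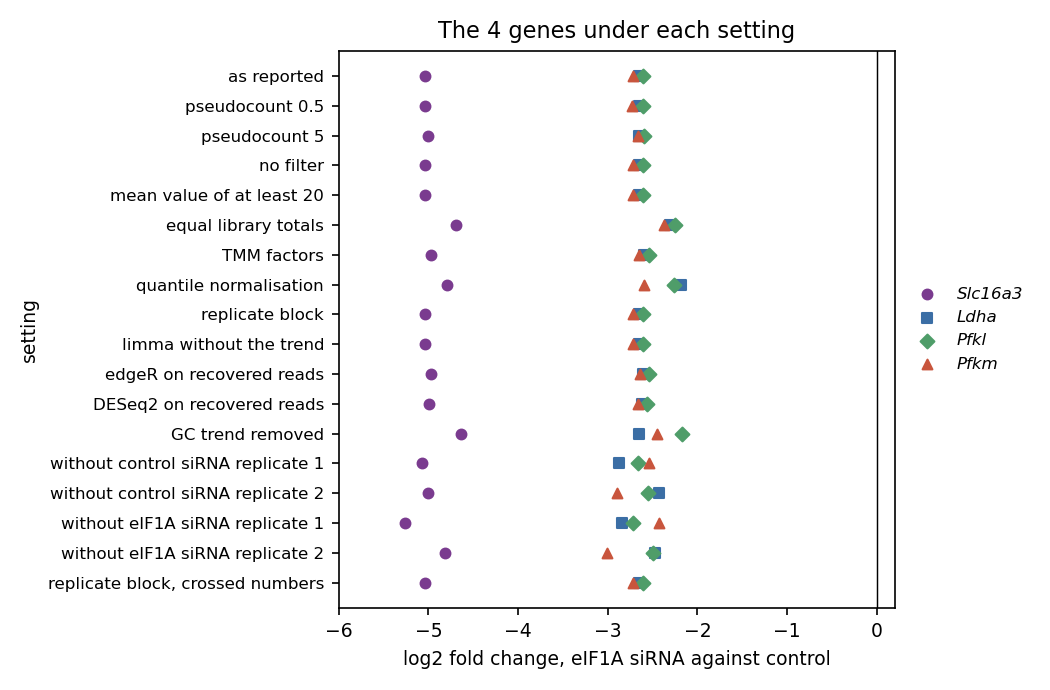
Log2 fold change of the 4 genes as reported and under the 17 other settings, a row for each setting and a symbol for each gene. Slc16a3 stays between −4.64 and −5.26, and the other 3 genes stay between −2.17 and −3.01.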

How the data were processed

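The deposited values are a signal, named normalised counts by the authors, with 1 column for each of the 4 libraries. Tools listed in the submitters' processing notes are STAR, HTSeq, DESeq2, cutadapt 1.8.3 and bcl2fastq 2.17.1.14, and the build is mm10. Nothing used here says how size factors were set, whether duplicates were collapsed, whether strand was used or how genes were selected. All values were whole multiples of 1 step per column (100% within 0.01 read), so reads were recovered. Every value is above 0.

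Columns were matched to samples by name and groups taken from titles. All 4 libraries entered 1 limma fit (3.58.1, R 4.3.3) of log2(value + 1), trended on the mean and without a block. A gene needed a mean value of 5 or more. Adjustment (Benjamini-Hochberg) ran over every tested gene, with a threshold of 0.05. Fold changes are on the log2(value + 1) scale and understate the change of low genes. The members, gene lists and named genes were chosen with earlier results of these data known. Named genes were the 4 members, all genes present from the enzyme and transporter lists, up to 4 genes of smallest p of other lists, and the 3 genes nearest in pattern to each member, of which 1 is not reported here. The fits were tested on simulated data.

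Positions and GC content are from GENCODE M21 (4873 of 4878 symbols matched, 132 through another RefSeq symbol), and promoter windows from RefSeq (GRCm38.p6, all 4 members matched). The nearest genes were sought only among those in the table. Replicates differed beyond sampling noise (chi-square divided by its degrees of freedom was 16.5 in controls and 13.7 in knockdowns), and each library was counted as a replicate. Alternatives were pseudocounts 0.5 and 5, a minimum mean of 20 or none, 3 scalings, the replicate block, no trend, edgeR 4.0.16, DESeq2 1.42.0, a loess (span 0.5) on GC content removed, and each library left out.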

Additional observations from a re-analysis of the deposited data

How the results depend on the processing

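With 2 libraries a group, the precision is set by the spread between them more than by depth, except for genes of few reads such as Pfkp, Pgk1 and Rpe. The 4 genes kept their direction under every setting run, though some settings cannot change a fold change. In the settings that used all 4 libraries the lower calls stayed at 5 glycolytic enzymes and 2 transporter genes. The cause of the following moves was not tested. With equal library totals the counts over all genes were 1308 higher and 606 lower (733 and 996 as reported), and limma without the trend called 655 lower. With equal totals Slc16a3 was at −4.69 and Pfkl at −2.26, and the medians were −1.46 for glycolytic enzymes, −1.11 for transporters and −0.41 for HIF-1 targets. Quantile normalisation gave −2.19 for Ldha, −2.27 for Pfkl and −0.84 for the transporter median. With the GC trend removed Slc16a3 was at −4.64, Pfkl at −2.17 and the transporter median at −1.001. Adpgk and Mpc2 became calls (1 higher on each list) with equal totals and with quantile normalisation. HIF-1 targets called higher were 4 with equal totals, 1 with the GC trend removed or the replicate block, and 0 with DESeq2 or quantile normalisation, and their median was −1.02 at a mean of at least 20. Leaving out each library gave 438 to 758 genes higher (438 without knockdown replicate 2, 491 without knockdown replicate 1) and 715 to 987 lower, −5.26 to −4.81 for Slc16a3, −2.88 to −2.43 for Ldha, −2.72 to −2.49 for Pfkl and −3.01 to −2.43 for Pfkm. The medians then ran from −1.98 to −1.64 for glycolytic enzymes, from −1.47 to −1.36 for transporters and from −1.06 to −0.81 for HIF-1 targets, with 0 to 2 HIF-1 targets higher. Signs turned for Egln2 (0.0068) and Prps1 (−0.20) with the GC trend removed and for Car13 without control replicate 2 (−0.21, up to 1.58 with others left out). The replicate block called 641 genes higher and 918 lower and left the log2 fold changes as they were. Same-numbered libraries shared only a number (correlation of deviations −0.11). Crossed numbers, tried after seeing the data, gave 891 higher and 1154 lower.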
